A study of Mus musculus with 8 samples.

Results

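The mitochondrial genome of the mouse carries 37 genes, and this account describes all of them, the 13 mRNAs, 2 rRNAs and 22 tRNAs whose symbols begin with mt-, out of 55291 genes in the count table. They were chosen by a rule on the gene symbol after it was known that several of the tRNAs passed the threshold between the genotypes, so every genotype difference of these 37 genes is given as a description of the 8 mice and not as a new test. Lumbar spinal cord RNA was measured in 4 Ager deleted mice, SOD1G93A Agerfl/fl Cx3cr1Cre/+ (E1776, E5231, E5248 and E5568), and in 4 Cre Control mice, SOD1G93A Ager+/+ Cx3cr1Cre/+ (E5386, E5642, E6578 and E6732). All 8 were male mice on the C57BL/6J background that carried the mutant human SOD1 transgene and were heterozygous at Cx3cr1 for a tamoxifen-inducible Cre. The labels give an age of 120 days and 5 injections of 0.2 µg tamoxifen from 12 weeks of age for both genotypes, while the study text places tamoxifen at a slightly later age and the tissue at end-stage. The recombinase acts in Cx3cr1-expressing cells, whereas RNA came from the whole lumbar cord, in which the level of Ager itself (SD, n = 4 each) was 1.19 ± 0.287 CPM (counts per 1000000 of the TMM-scaled library) with the deletion and 2.08 ± 0.382 CPM without it. Values per mouse follow the order of the mice named above, the Ager deleted mice first.

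Both strands of the mitochondrial genome are transcribed from the control region into long RNAs that run through nearly every gene. The tRNAs punctuate these RNAs, and cutting at their ends by RNase P and ELAC2 frees the mRNAs and rRNAs between them. The mRNAs encode core subunits of respiratory complexes I, III, IV and V, the rRNAs and tRNAs serve their translation inside the organelle, and all other proteins needed come from nuclear genes.

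On chromosome M of GRCm38, in GENCODE M21, 28 of the genes are encoded on the heavy strand and 9 on the light strand, the latter being mt-Nd6 and the tRNAs mt-Tq, mt-Ta, mt-Tn, mt-Tc, mt-Ty, mt-Ts1, mt-Te and mt-Tp. Each of the 37 is a single exon without introns, and most lie within a few bases of their neighbours. The libraries were made with a stranded kit from polyadenylated RNA, but the counts carry no sign of the strand. Of 69 genes that lie wholly inside exons of a well counted gene on the opposite strand, 68 had 0 counts in every mouse. Of 1054 genes inside introns on the opposite strand, 209 (19.8%) had 80 counts or more. Counts of mt-Nd6 and of the light-strand tRNAs can therefore not be told apart from heavy-strand RNA across the same bases.

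The tRNA genes on which the genotype difference rests are short, and most lie within a few bases of their neighbours. Genes wholly inside exons of another gene nearly all had no counts, so fragments that also reach a neighbouring gene may have been left out. The tRNA counts may thus hold only part of the RNA across these genes, which was not tested. The 5 tRNAs that passed the threshold and mt-Tt, which lay just outside it, are printed 5′ to 3′ from the GENCODE M21 transcripts as DNA, with the anticodon in capitals.
mt-Tc, cysteine, chrM:5192-5257, light strand: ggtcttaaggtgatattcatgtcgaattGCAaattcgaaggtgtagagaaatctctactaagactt
mt-Tg, glycine, chrM:9391-9458, heavy strand: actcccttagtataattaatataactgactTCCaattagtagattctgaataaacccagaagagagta
mt-Ta, alanine, chrM:5018-5086, light strand: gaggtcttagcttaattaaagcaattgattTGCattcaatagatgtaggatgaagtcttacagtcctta
mt-Tq, glutamine, chrM:3772-3842, light strand: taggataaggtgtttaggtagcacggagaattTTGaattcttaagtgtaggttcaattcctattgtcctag
mt-Ts2, serine, chrM:11613-11671, heavy strand: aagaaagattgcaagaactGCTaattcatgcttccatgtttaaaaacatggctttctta
mt-Tt, threonine, chrM:15289-15355, heavy strand: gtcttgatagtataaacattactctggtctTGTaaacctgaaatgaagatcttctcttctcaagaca
The 5 called tRNAs are 59 to 71 bases long with 30.9% to 36.6% GC, and carry 5 different anticodons. The other 8 tested tRNAs are 67 to 75 bases long with 27.5% to 44.9% GC. mt-Ts2, the shortest of the 22, is the serine tRNA that lacks the D arm.

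The middle of the genome could hardly be counted. On chromosome 1 of GRCm38, 7 annotated pseudogenes on the minus strand, chr1:24611535-24616188, copy chrM:6390-11042 in the same order. Over 4140 aligned bases the copies differ from the mitochondrial transcripts at 2. These are A1066T in mt-Co1 against Gm29216 and T3C in mt-Nd3 against Gm28438, with positions counted from the 5′ end of each gene, the mitochondrial base first and the copy second. The bases between the annotated copies were not compared, and since the stretch is 4654 bases long on chromosome 1 and 4653 bases on chromosome M there is at least 1 further difference in them. The 4 windows are shown with the differing base in capitals, as the differences found within the aligned transcripts.
mt-Co1, chrM:6390-6413: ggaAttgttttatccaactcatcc
Gm29216, chr1:24616165-24616188, minus strand: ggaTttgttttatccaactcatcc
mt-Nd3, chrM:9459-9481: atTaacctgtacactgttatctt
Gm28438, chr1:24613097-24613119, minus strand: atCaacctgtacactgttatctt
Of the 11 genes wholly inside this stretch, mt-Ts1, mt-Td, mt-Tk, mt-Atp8 and mt-Nd4l had 0 counts in all 8 mice, where a floor of 3 counts is 0.0729 to 0.0975 CPM and covers counting error only. mt-Co2 had 0 to 4 counts, mt-Atp6 0 to 2, mt-Co3 0 to 9 and mt-Tr 0 to 5. The mRNAs among them encode subunits of complex IV, of the ATP synthase and of complex I, and their levels in the cord were not detectable in this table. mt-Nd3, which holds 1 of the differing bases at its start, had 94 to 410 counts, and mt-Tg, which ends just before it, had 4 to 30. mt-Co1 and mt-Nd4 lie in the stretch in part, with 1062 and 502 bases outside it. The 7 copies on chromosome 1 together had 107, 122, 329 and 203 counts in the Ager deleted mice and 221, 237, 204 and 240 in the controls.

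**Figure D1:**
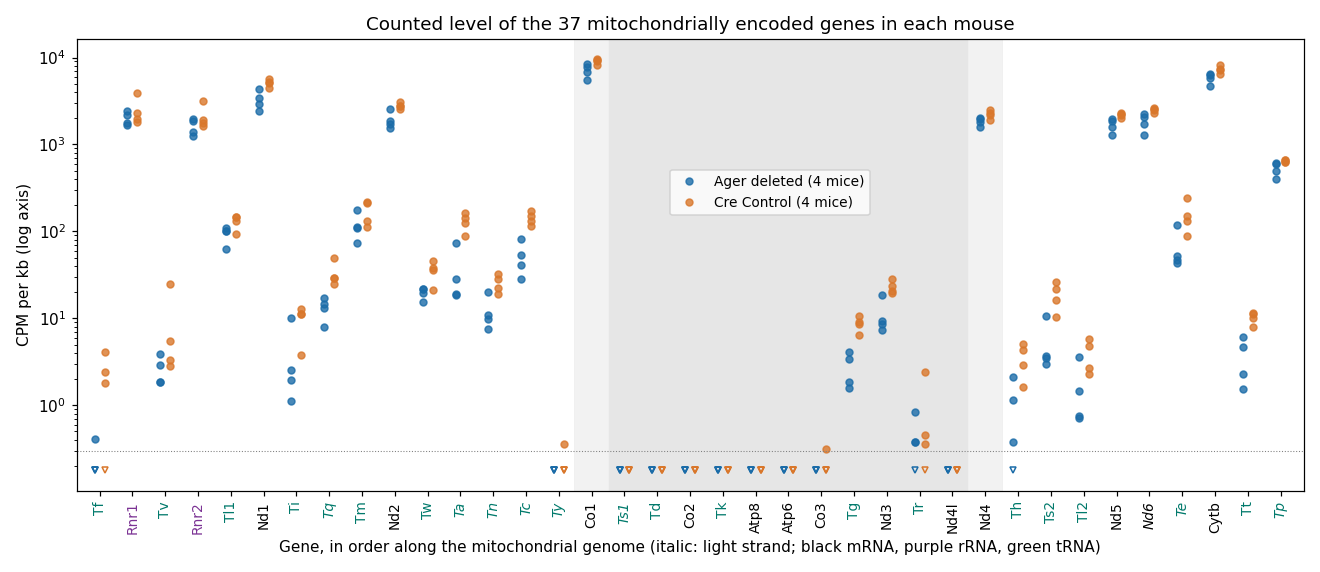
CPM per kb of gene (log axis) of the 37 genes in genome order, 1 point per mouse, blue for Ager deleted and orange for Cre Control, with values under 0.3 drawn as open triangles below the dotted line. The dark band marks the 11 genes inside the stretch copied on chromosome 1 and the pale bands mt-Co1 and mt-Nd4, which lie partly inside it. The mRNAs and rRNAs outside the band lie above the tRNAs in every mouse.

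The 37 genes took 2.66%, 3.24%, 4.07% and 3.70% of all counts in the individual Ager deleted mice, and 4.67%, 4.61%, 4.26% and 4.00% in the individual controls. The means were 3.42% ± 0.608 and 4.38% ± 0.315 (SD, n = 4 each), a difference of 0.967 percentage points. Of the 4 controls, 3 were above all Ager deleted mice, and control E6732 lay just under E5248, the highest Ager deleted mouse. In bulk tissue, fewer cells of a type and less RNA per cell cannot be told apart. The mRNAs made up most of these counts, with 81.6% to 89.8% in every mouse.

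The 3 classes differed in how they lay across the mice. The mRNAs took 2.30% to 3.53% of the library in Ager deleted mice and 3.51% to 4.14% in controls, which overlapped at E5248 and E6732. The rRNAs took 0.356% to 0.531% and 0.425% to 0.837%, and control E5642 alone was above the Ager deleted mice. The tRNAs took 0.00572% to 0.00765% and 0.00923% to 0.0114%, so that every control was above every Ager deleted mouse. In counts, the 22 tRNAs together had 2223 to 2684 per Ager deleted mouse and 2876 to 4165 per control.

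Genes of other tissues moved with some of these libraries. The summed level of 12 skeletal muscle genes was 182 to 200 CPM in Ager deleted mice, 1180 and 1740 CPM in the first pair of controls (E5386 and E5642), and 186 and 180 CPM in the other pair (E6578 and E6732). The summed level of 6 liver genes was 1.34 to 2.61 CPM in 7 mice and 579 CPM in control E6732, with 2 of the 6 at 0 in at least 1 mouse. None of the 12 muscle genes was at 0 in any mouse. In control E5386, which held the highest value of all mice for 11 of the 23 tested genes, 5 adipocyte genes summed to 132 CPM against 0.864 to 6.70 CPM in the other mice, and 3 Schwann cell genes to 114 CPM against 388 to 1170 CPM. Neuron markers summed to 1430 to 2110 CPM in Ager deleted mice and 1640 to 1960 CPM in controls. In E1776 and E5231, the mice with the least mitochondrial RNA, neuron, Schwann cell and lumbar Hox genes were at the lower Ager deleted values. Motor neuron, oligodendrocyte, astrocyte and microglia markers were at the higher ones instead. Motor neuron markers were at 50.5, 41.0, 31.9 and 27.0 CPM in Ager deleted mice and 32.2 to 46.9 CPM in controls. Astrocyte markers were at 15700, 14700, 10600 and 11900 CPM and at 12800 to 14300 CPM. Microglia markers were at 578, 553, 401 and 416 CPM and at 467 to 525 CPM. The part of these cells and tissues in the mitochondrial values was not tested, apart from the values without E5386 and E5642 given beside the results below.

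**Figure D2:**
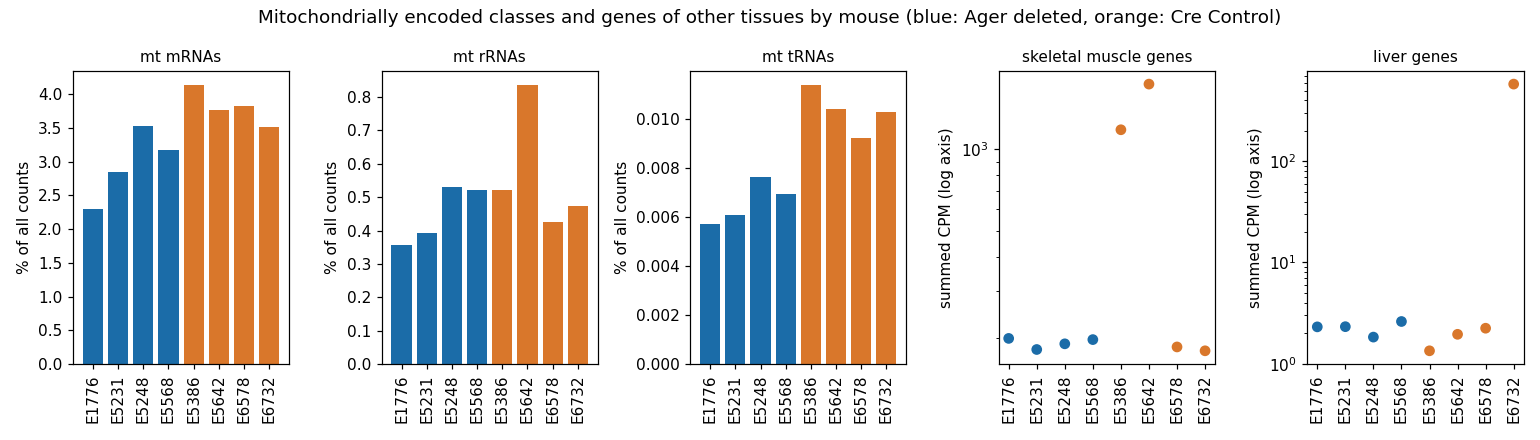
Share of all counts taken by the mt mRNAs, rRNAs and tRNAs in each mouse (bars, from 0), and the summed CPM of 12 skeletal muscle and 6 liver genes (points, log axis), with Ager deleted mice in blue and Cre Control mice in orange. The tRNA bars of the 4 controls all exceed those of the Ager deleted mice, muscle genes are high in E5386 and E5642, and liver genes in E6732.

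Of the 37 genes, 23 passed the filter on low counts and were tested, and all 23 had a higher fitted level in Cre Control mice. In edgeR's exact test over 19470 genes, to which all adjusted p-values below belong unless another is named, 5 tRNAs and none of the mRNAs or rRNAs had an adjusted p under 0.05, all 5 higher in controls. Over all genes, 0.0719% were called in either direction and 0.0616% as higher in controls, and since this contrast chose the members nothing is read from their larger share. In 11 of the 23 every control was above every Ager deleted mouse, as in 1.91% of all genes tested. With common and tagwise dispersions 9 of the 23 were called higher in controls, against 0.385% of all genes, and with DESeq2 5, against 0.113%. With edgeR's quasi-likelihood test none was called, the smallest adjusted p among them being 0.705, and over all genes 1 was called. In it 20 of the 23 had an unadjusted p under 0.05, against 1307 of all 19470 genes. In the exact test 20 of the 23 did, against 829 of all genes.

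Not all 23 entered the test alike. For 19 every mouse of both genotypes reached the filter's 0.274 CPM. mt-Tg, mt-Ts2 and mt-Tt passed it through the controls alone, which favours a difference in that direction, and mt-Ti passed with 3 controls and 1 Ager deleted mouse. The 14 genes not tested were the 9 inside the copied stretch named above and the tRNAs mt-Tf, mt-Tv, mt-Ty, mt-Th and mt-Tl2, which had 0 to 9, 5 to 56, 0 to 1, 0 to 12 and 2 to 17 counts per mouse.

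The ribosomal RNAs did not pass the threshold. mt-Rnr1, the RNA of the small mitochondrial subunit (chrM:70-1024), was measured at 1580, 1700, 2090 and 2290 CPM with the deletion and at 2170, 3720, 1710 and 1850 CPM without it. The log2 fold change of controls over Ager deleted mice came to 0.30 (standard error 0.24, adjusted p = 1), and the groups overlapped except at E5642. Without E5386 and E5642 it was -0.10. mt-Rnr2, the RNA of the large subunit (chrM:1094-2675), was at 2000, 2180, 3120 and 2910 CPM and at 3040, 5060, 2600 and 2790 CPM, a log2 fold change of 0.40 (standard error 0.23, adjusted p = 1) that fell to 0.09 without those 2 controls. Counts of both rRNAs per 1000 mRNA counts were 139 to 164 in Ager deleted mice and 126, 223, 111 and 135 in the controls, and the 223 of E5642 stood above all other mice. In these libraries selected for polyadenylated RNA, mt-Rnr1 and mt-Rnr2 were at 2010 and 1610 CPM per kb in Ager deleted mice and at 2470 and 2130 CPM per kb in controls.

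Among the mRNAs, mt-Co1, the catalytic subunit of complex IV (chrM:5328-6872), had the highest level per kb. Its values were 8580, 10400, 12900 and 12000 CPM with the deletion and 14700, 14600, 14100 and 12600 CPM in controls, a log2 fold change of 0.35 (standard error 0.16, adjusted p = 0.901). Its level was 7100 and 9070 CPM per kb of the whole gene in Ager deleted mice and controls. It would be 10300 and 13200 CPM per kb if all its counts came from the part outside the copied stretch. mt-Cytb, the complex III subunit, followed with 5870 and 7300 CPM per kb, and then mt-Nd1 with 3270 and 5100. mt-Nd4 was at 1830 and 2220 CPM per kb over its whole length, and would be at 5030 and 6110 if all its counts came from its uncopied bases. Where the reads lay within mt-Co1 and mt-Nd4 was not measured. The other complex I subunits mt-Nd2, mt-Nd5 and mt-Nd6 were at 1920, 1670 and 1820 CPM per kb in Ager deleted mice and 2800, 2190 and 2510 in controls. mt-Atp8 and mt-Nd4l, with no count in any mouse, lie wholly in the copied stretch, so that no level can be given for them.

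Along the genome the fitted differences of the mRNAs outside mt-Nd3 ranged from 0.28 to 0.64, and differences between genes were not tested. mt-Nd1, the first mRNA after the rRNAs (chrM:2751-3707), was at 2310, 2810, 4110 and 3300 CPM in Ager deleted mice and at 5360, 5010, 4890 and 4260 CPM in controls, so that the genotypes did not overlap. The fold change on the log2 scale was 0.64 (standard error 0.17, adjusted p = 0.103, or 0.0140 when common and tagwise dispersions were used). mt-Nd2 followed with 0.54 (standard error 0.15, adjusted p = 0.176), while mt-Co1, mt-Nd4, mt-Nd5, mt-Nd6 and mt-Cytb had log2 fold changes of 0.35, 0.28, 0.39, 0.46 and 0.32. Seen within each library, where no normalization enters, mt-Nd1 had 269, 271, 319 and 275 counts per 1000 counts of mt-Co1 in the Ager deleted mice and 364, 344, 346 and 338 in the controls. All controls were above all Ager deleted mice in this ratio. For mt-Nd2 the ratio was 188, 172, 206 and 159 per 1000 against 215, 200, 202 and 213, which overlapped at E5248. The ratio of mt-Cytb to mt-Co1 counts overlapped fully, at 575 to 646 and 583 to 631 per 1000.

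mt-Nd6, the only mRNA of the light strand and a complex I subunit (chrM:13552-14070), was at 670, 902, 1150 and 1060 CPM in Ager deleted mice and at 1310, 1340, 1370 and 1190 CPM in controls. This was a log2 fold change of 0.46 (standard error 0.15, adjusted p = 0.484), and every control was above every Ager deleted mouse. Against the counts of the other mRNAs it made up 29.9 to 34.7 per 1000 in Ager deleted mice and 32.7 to 36.8 per 1000 in controls, which overlapped. mt-Nd3, a complex I subunit inside the copied stretch (chrM:9459-9806), was at 3.00, 2.53, 6.49 and 3.21 CPM and at 7.11, 8.12, 6.86 and 9.97 CPM. The groups did not overlap (log2 fold change 1.08, standard error 0.27, adjusted p = 0.103), but reads of mt-Nd3 and of its copy can be told apart by only 1 of the 345 aligned bases, and which of them were counted was not tested.

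The tRNAs were counted at low depth. The libraries were selected for polyadenylated RNA and the counts carry no strand, so the values below are of RNA across each tRNA gene. Whether this was mature tRNA, uncut RNA or RNA of the other strand was not tested. mt-Tp, the proline tRNA at the border of the control region (chrM:15356-15422, light strand), had the most counts, 1063 to 1750 per mouse. It was at 27.0, 33.4, 40.3 and 41.2 CPM in Ager deleted mice and at 44.3, 41.6, 44.3 and 42.6 CPM in controls (log2 fold change 0.28, standard error 0.12, adjusted p = 1). It made up 46.9% to 59.4% of all tRNA counts in Ager deleted mice and 38.0% to 47.4% in controls. Together with mt-Tl1, mt-Tm, mt-Ta, mt-Tc and mt-Te it made up 88.2% to 94.1%. The other tRNAs had at most 127 counts in any mouse.

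mt-Tc, the cysteine tRNA, was at 1.88, 2.72, 5.42 and 3.57 CPM in Ager deleted mice and at 11.3, 9.94, 7.57 and 8.66 CPM in controls, from 74 to 412 counts. The genotypes did not overlap (log2 fold change 1.46, standard error 0.28, adjusted p = 0.00432). mt-Ta, the alanine tRNA in the same group of light-strand tRNAs after mt-Nd2, was at 1.30, 1.27, 5.02 and 1.94 CPM and at 11.3, 9.82, 6.11 and 8.61 CPM (log2 fold change 1.91, standard error 0.41, adjusted p = 0.0209). Here too every control was higher, and E5248 stood well above the other Ager deleted mice. mt-Tq, the glutamine tRNA between mt-Ti and mt-Tm, was at 1.04, 0.566, 1.21 and 0.930 CPM and at 3.47, 2.07, 1.76 and 2.09 CPM (log2 fold change 1.32, standard error 0.28, adjusted p = 0.0281), again without overlap.

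mt-Tg, the glycine tRNA inside the copied stretch, rested on 5, 4, 10 and 9 counts in Ager deleted mice and 16, 20, 18 and 30 in controls. In CPM it was at 0.127, 0.108, 0.282 and 0.233 and at 0.438, 0.618, 0.585 and 0.729 (log2 fold change 1.66, standard error 0.33, adjusted p = 0.0140), without overlap. mt-Ts2, the D-armless serine tRNA, was at 0.178, 0.216, 0.621 and 0.207 CPM and at 0.957, 1.27, 0.618 and 1.56 CPM (log2 fold change 1.86, standard error 0.42, adjusted p = 0.0438). E5248 reached the level of control E6578, so this called gene did overlap. Just outside the threshold, mt-Tt, the threonine tRNA after mt-Cytb, was at 0.102, 0.404, 0.310 and 0.155 CPM and at 0.684, 0.772, 0.748 and 0.535 CPM (log2 fold change 1.49, standard error 0.37, adjusted p = 0.0503).

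**Figure D3:**
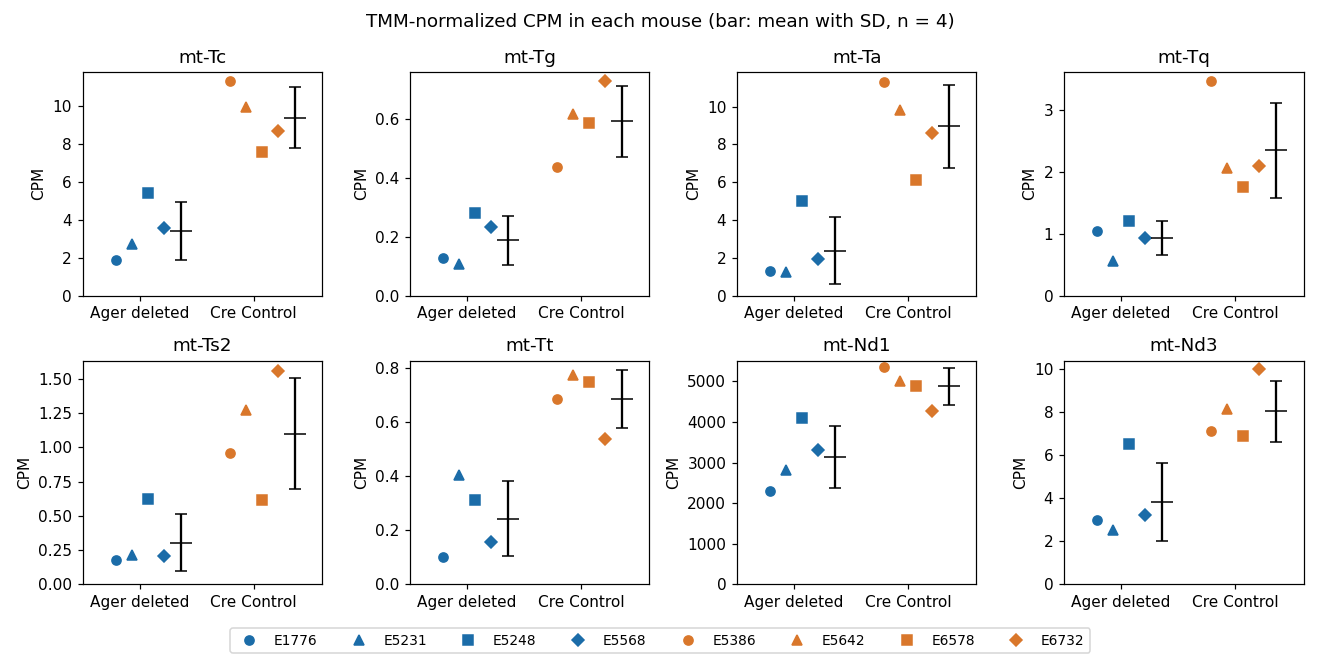
TMM-normalized CPM (linear axes from 0) of the 5 called tRNAs, of mt-Tt, mt-Nd1 and mt-Nd3, the 3 genes next in order, 1 symbol per mouse, with the mean and SD of the 4 mice beside each group. In 7 of the 8 panels every control lies above every Ager deleted mouse, the exception being mt-Ts2, and E5248 is the highest Ager deleted mouse in 7 panels.

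The remaining tested tRNAs fell into 2 patterns by mouse. mt-Tn (asparagine), mt-Te (glutamate) and mt-Ti (isoleucine) had log2 fold changes of 1.08, 1.24 and 1.30 with adjusted p of 0.225, 0.252 and 1, and were highest among Ager deleted mice in E5248. mt-Tl1 (leucine) and mt-Tm (methionine), with log2 fold changes of 0.47 and 0.51 and mt-Tw (tryptophan) with 0.83, had their lowest value in E5248 instead. mt-Tl1 was at 8.25, 7.57, 4.71 and 7.50 CPM in Ager deleted mice and 11.0, 9.91, 10.9 and 7.05 CPM in controls, and mt-Tm at 12.2, 7.84, 5.14 and 7.52 CPM and 15.0, 14.8, 9.04 and 7.81 CPM. None of the 3 passed the threshold (adjusted p = 1, 1 and 0.372).

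By the strand that encodes them, 3 of the 6 tested light-strand tRNAs and 2 of the 7 tested heavy-strand tRNAs were called, with log2 fold changes of 0.28 to 1.91 and 0.47 to 1.86. Both of the called heavy-strand tRNAs, mt-Tg and mt-Ts2, were among those that passed the filter through the controls alone, and the 3 light-strand ones were not. The 8 light-strand tRNAs had 1.61 ± 0.132 counts per 1000 mRNA counts of the same library in Ager deleted mice and 1.99 ± 0.242 in controls (SD, n = 4 each), a ratio of the means of 1.24. Control E6578, at 1.74, was a little below E5248, at 1.78, and the other 3 controls were above all Ager deleted mice. Without mt-Tp, which held most of the light-strand tRNA counts in every mouse, the ratio was 2.17, with 0.307 to 0.613 and 0.598 to 1.09 counts per 1000. The heavy-strand tRNAs had 0.390 to 0.985 and 0.607 to 0.843 counts per 1000, a ratio of 1.13 with full overlap. This sum kept mt-Tl1 and mt-Tm, with mean counts of 302 and 359, so it is unlike the light-strand sum without mt-Tp. By gene, the median log2 fold change was 1.30 for the 7 tested heavy-strand tRNAs and 1.28 for the 6 light-strand ones. The former include the 3 that passed the filter through the controls alone. All 22 tRNAs together had 2.25 ± 0.163 counts per 1000 mRNA counts in Ager deleted mice and 2.72 ± 0.217 in controls (SD, n = 4 each), a ratio of the means of 1.21. The difference between the strands was not tested.

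**Figure D4:**
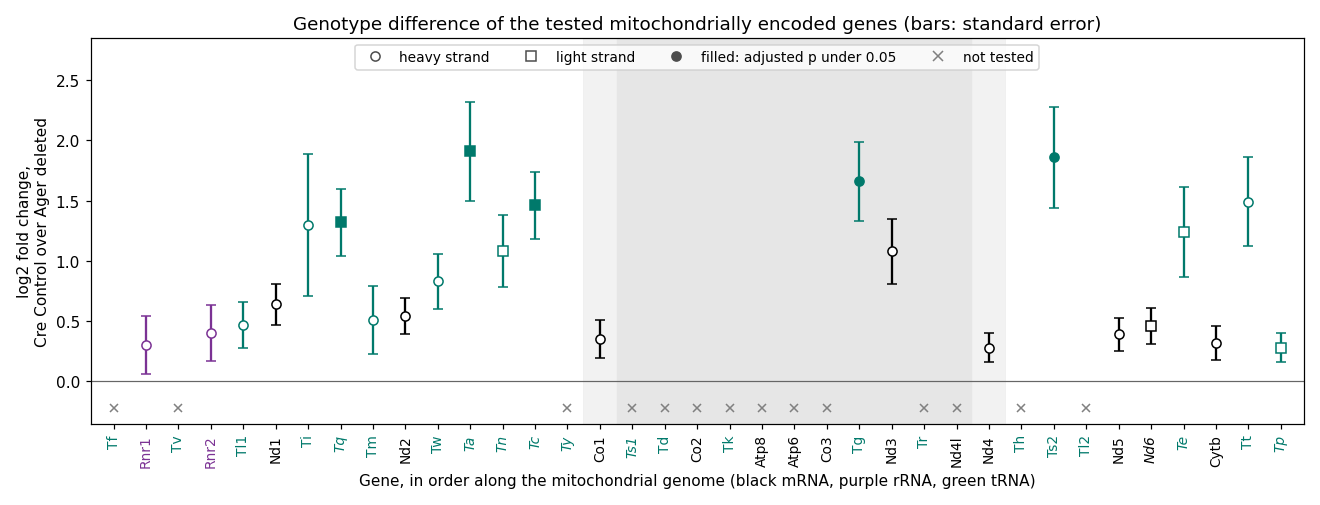
Log2 fold change of Cre Control over Ager deleted mice with its standard error for the 23 tested genes in genome order, circles for the heavy strand and squares for the light strand, filled where the adjusted p in edgeR's exact test was under 0.05, with crosses for the 14 genes not tested. The grey bands are as in the plot of levels by gene order. All 23 points are above 0, the mRNAs and rRNAs between 0.28 and 0.64 apart from mt-Nd3, and most tRNAs above 1.

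Single mice decided how many of these genes passed. E5248 held the highest value of the Ager deleted mice for 17 of the 23 genes, all 8 mRNAs among them. Without it 12 of them were called, 9 tRNAs and 3 mRNAs, while calls over all genes rose from 14 to 53 (0.269% of those tested). Among the 37 genes, only mt-Tc was called without E1776, only mt-Tt without E5231, only mt-Tg without E5568 and only mt-Tc without control E5642, where 0.0506%, 0.0152%, 0.0405% and 0.0406% of all genes were called. Without control E5386, E6578 or E6732, 5, 6 and 7 of the mitochondrial genes were called, while calls over all genes rose to 72, 98 and 89. Without E5386 and E5642, the controls with high muscle genes, calls over all genes rose to 67 (0.333%), but of the mitochondrial genes mt-Tg alone kept an adjusted p under 0.05 (0.0119). It had 4 to 10 counts in Ager deleted mice and passed the filter through the controls. In the same fit the log2 fold changes of mt-Tc, mt-Ta, mt-Tq and mt-Ts2 were 1.27, 1.64, 1.05 and 1.85. Control E6578, whose muscle and liver sums of 186 and 2.24 CPM lay within the range of the Ager deleted mice, was above all of them for 8 of 8 mRNAs, 9 of 13 tRNAs and 0 of 2 rRNAs. Its erythroid and Schwann cell sums, 372 and 1120 CPM, were above those of the Ager deleted mice, which reached 240 and 1110 CPM. Control E6732, with low muscle but high liver genes, was above all Ager deleted mice for 5 of 8 mRNAs, 9 of 13 tRNAs and 0 of 2 rRNAs.

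The nuclear copies were compared on their own, since the members' rule did not use them. Of 16 annotated pseudogenes that match mitochondrial transcripts, 10 passed the filter. None was called in the quasi-likelihood test, DESeq2 or either form of edgeR's exact test, and none had an unadjusted p under 0.05 in the exact test. Of all 19470 genes, 0.0719% were called in the exact test and 829 had an unadjusted p under 0.05. Nothing is read from the lack of calls among 10. The 7 copies on chromosome 1 are 99.71% to 100% identical to the mitochondrial genes over the aligned bases. Mitochondrial reads may thus be among their counts, which was not tested. Together these 7 copies had 5.13 ± 2.97 CPM in Ager deleted mice and 6.46 ± 0.665 CPM in controls (SD, n = 4 each). As with the mitochondrial genes, E5248 was the highest Ager deleted mouse, at 9.28 CPM, which was above all controls.

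Nuclear genes for mitochondrial RNA, translation, biogenesis and mass were taken from 7 lists written from general knowledge. Of these 204 genes 200 were tested, and in edgeR's exact test none was called. Since only 0.0719% of all genes were called, nothing is read from the lack of calls among 200. With an unadjusted p under 0.05 there was 1 gene, against 829 of all 19470 genes. It was Cdk5rap1, a tRNA modification enzyme (log2 fold change -0.33, standard error 0.11, adjusted p = 0.995). Common and tagwise dispersions, the quasi-likelihood test and DESeq2 called none of the list genes either, against 78, 1 and 27 of all genes. The median log2 fold change was 0.01 for 22 genes of transcription and mtDNA maintenance, 0.04 for 25 of RNA processing and decay, -0.04 for 22 tRNA synthetases and -0.02 for 20 tRNA modification genes. It was 0.08 for 11 biogenesis regulators, 0.00 for 20 markers of mitochondrial mass and -0.04 for 80 tested mitochondrial ribosomal proteins, against -0.01 over all genes tested. The medians of the tested mitochondrial mRNAs, rRNAs and tRNAs were 0.43, 0.35 and 1.30, the last including the 3 tRNAs that passed the filter through the controls alone.

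Polrmt, the mitochondrial RNA polymerase, was at 32.7 ± 2.58 CPM in Ager deleted mice and 30.2 ± 2.13 CPM in controls (SD, n = 4 each, log2 fold change -0.11). Tfam, which packages mitochondrial DNA and starts its transcription, had a log2 fold change of 0.02, and Twnk, the helicase of its replication, one of -0.11. Of the enzymes that cut out tRNAs, Elac2, Hsd17b10 and Trmt10c had log2 fold changes of -0.11, 0.08 and 0.16, and of those acting on the mRNAs, Lrpprc and Slirp, which stabilize them, -0.04 and -0.15, the poly(A) polymerase Mtpap 0.18 and the nuclease Pnpt1 0.15. The adjusted p was 1 for all 10 and their standard errors were 0.06 to 0.16. Trmt10c, at 12.8 ± 0.873 and 14.2 ± 0.304 CPM (SD, n = 4 each), was the only one of them with every control above every Ager deleted mouse.

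Lars2, the mitochondrial leucyl-tRNA synthetase, chosen after its values were seen, was the list member that differed most between mice. Its levels were 59.6, 86.4, 55.2 and 1390 CPM with the deletion and 179, 3480, 124 and 87.5 CPM without it. E5568 and E5642 were far above the others, and these also had the highest mt-Rnr1 of their genotype, while mt-Rnr2 was highest in E5642 among controls but in E5248 among Ager deleted mice. The part of whatever Lars2 reads stand for in the rRNA values was not tested.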

How the data were processed

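Reads were quality-filtered by the authors, aligned in pairs with STAR 2.7.3a (mm10) and summed by featureCounts over GENCODE M25. The authors deposited the resulting raw counts (31148047 to 40324897 per mouse) and log2 values of TMM-normalized CPM, here used only to check filter and normalization. How multiply mapped reads and strand were handled is not given in the sources used here.

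Low genes were removed by filterByExpr (minimum 10 counts), and the rest were TMM-normalized and compared with edgeR 4.0.16's exact test, dispersions from estimateDisp without a design, with Benjamini-Hochberg adjustment over 19470 genes and a threshold of 0.05. Standard errors are from the quasi-likelihood fit. CPM uses effective library sizes. The p-values measure the spread between these mice only. Gene positions and transcripts are from GENCODE M21 on GRCm38, an earlier release, and copies were found with BLAST 2.17.0 among its transcripts (at least 90% identity over 100 bases), since no genome sequence was used. Values per mouse are given for the rRNAs, mt-Nd6, the mRNAs highest and lowest per kb, the called genes, the next 3 and the tRNA with most counts; nuclear genes are those called and 10 fixed names. Members, lists and this rule were chosen with earlier results of these data known, and genes named outside the rule were chosen after their values were seen. Alternatives covered normalization, filter, dispersion, test and each mouse left out.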

Additional observations from a re-analysis of the deposited data

Results flagged for a closer look

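In 5 of 52 groups of 4 mice examined over the 23 tested genes and the 3 classes, 1 mouse stood apart from the other 3 by Dixon's criterion, which flags about 1 in 20 groups by chance. In 4 of them it was the Ager deleted mouse E5248, always as the highest of its genotype. It was at 0.705 CPM for mt-Ti, where the others were at 0.0775 to 0.178 CPM, and at 6.49 CPM for mt-Nd3, where they were at 2.53 to 3.21 CPM. For mt-Ts2 it was at 0.621 CPM against 0.178 to 0.216 CPM, and for mt-Te, the glutamate tRNA, at 8.13 CPM against 3.02 to 3.57 CPM. The fifth was control E6578, which at 0.260 CPM of mt-Ti lay below the other controls at 0.772 to 0.875 CPM. The mt-Ti values rest on 3 to 32 counts per mouse.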

How the results depend on the processing

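All 23 tested genes kept a higher level in controls under every alternative fit in which they were tested, except mt-Rnr1, at -0.10 on the log2 scale without controls E5386 and E5642. The 5 tRNAs called became 2 when all genes with at least 1 count were tested, 3 with at least 50 counts in 4 mice, 3 in DESeq2, 0 in the quasi-likelihood test and 1 without E5386 and E5642. They stayed the same 5 with RLE size factors, the upper quartile and TMM without the mitochondrial genes. Library size alone lost mt-Ts2. The 0 mRNAs called became 3 with common and tagwise dispersions and 2 in DESeq2. With each mouse left out, 1 to 9 tRNAs and 0 to 3 mRNAs were called, and 0 rRNAs and 0 of the nuclear list genes. Leaving out E1776, E5231, E5568 or E5642 left 1 tRNA, and leaving out E5248 gave 9 and a median tRNA log2 fold change of 1.63 in place of 1.30. At an adjusted p under 0.10 there were 6 tRNAs. Calls over all genes went from 14 to 78 with common and tagwise dispersions, 27 in DESeq2, 1 in the quasi-likelihood test and 5 with the stricter filter, and from 3 to 98 with each mouse left out. With each mouse left out the share of counts differed by 0.714 to 1.18 percentage points, and the tRNA to mRNA ratio of controls was 1.18 to 1.25 times that of Ager deleted mice. Fewer genes or mice enter some fits by construction, and otherwise the cause was not tested. No paired analysis was possible because the labels name mice and give no shared replicate numbers. Depth limits the tRNAs most: of the 13 tested, 4 had under 10 counts in some Ager deleted mouse.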
